A study of Mus musculus with 2 samples.

Results

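The cells described here are the gamma-delta (γδ) T cells among CD45+ cells sorted from the injured-side thalamus of mice. They were chosen by a rule on raw counts of unique molecular identifiers (UMIs, 1 per captured RNA molecule). A cell had to hold 200 to 7500 genes, at most 5% mitochondrial UMIs, 2 or more UMIs of *Cd3d*, *Cd3e* and *Cd3g* together, at least 1 of *Trdc*, and none of *Cd4*, *Cd8a*, *Cd8b1* or *Csf1r*. The rule took 3440 of the 27418 barcodes, 2363 from the library of mice given control Ab and 1077 from the library of mice given anti-CD9 Ab. Both libraries came from C57B6/J mice with cortical ablation injury (CAI), in which the right sensorimotor cortex is removed by aspiration. A rat antibody against the tetraspanin CD9 (clone KMC8), or normal rat IgG as control Ab, was injected into the thalamus through a cannula at 1.0 μg/μl from day 7 to day 19 after CAI, and cells were collected on day 21. Per the methods, 4 mice were pooled for a thalamus library, a number not restated for the antibody groups. The mice of the study were 12 weeks old, and all values are from injured mice. Nothing could be tested, as each antibody had 1 library, intervals are 95% and cover counting error only, and effects of the antibody, the pool of mice and the library cannot be told apart.

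γδ T cells carry a T cell receptor of a gamma and a delta chain in place of the alpha and beta chains of most T cells. One kind leaves the mouse fetal thymus already set to make interleukin-17 (IL-17), pairs the gamma segment Vγ6 with the delta segment Vδ1 (gene *Trdv4*), and settles in barrier tissues and in the meninges around the brain. These cells use the transcription factors SOX13 and PLZF (*Zbtb16*), the kinase BLK and the scavenger receptor SCART1, and respond to interleukin-23 and interleukin-1.

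The receptor segments read in these cells are shown first, since they bear on which kind of γδ T cell was present. Libraries read from the 3′ end of transcripts pick up a V segment in few cells, so UMIs are given as totals. *Trdv4* had 756 UMIs in γδ T cells after control Ab and 647 after anti-CD9 Ab, against 31 and 13 in all other Cd3-positive cells. *Trgv6* had 385 and 216 UMIs, against 26 and 14. *Trgv2* had 200 and 158, *Trgv5* 54 and 33, *Trgv1* 21 and 19, *Trgv4* 15 and 17, *Trgv7* 5 and 2, *Trdv2-2* 5 and 5, and *Trdv5* 1 and 2. *Trdv4* and *Trgv6* were thus the delta and gamma segments with the most UMIs in both libraries. The last 90 bases of their coding sequence, and of *Trgv4* (used by the other main IL-17-making γδ T cells of the mouse) for comparison, are given from the GENCODE annotation of GRCm38. Capitals start at the codon of the conserved cysteine where the CDR3, the part of the receptor that differs from clone to clone, begins. *Trdv4* lies at chr14:54075426-54075515, *Trgv6* at chr13:19190840-19190929 and *Trgv4* at chr13:19185417-19185506, all on the plus strand.
Trdv4: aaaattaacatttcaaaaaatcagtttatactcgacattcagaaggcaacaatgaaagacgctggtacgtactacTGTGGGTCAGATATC
Trgv6: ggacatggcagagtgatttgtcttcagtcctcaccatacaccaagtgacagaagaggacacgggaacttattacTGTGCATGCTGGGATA
Trgv4: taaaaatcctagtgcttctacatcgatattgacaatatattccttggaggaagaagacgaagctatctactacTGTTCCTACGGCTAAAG
Over their last 200 bases *Trgv6* and *Trgv4* shared 53.8% of aligned bases, and *Trgv6* shared 51.8% with *Trgv5* and 50.9% with *Trgv7*. The constant genes *Trgc1* and *Trgc2*, in contrast, are nearly identical, and how reads were split between them is uncertain.

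The label was checked on the 5 markers other than *Trdc* (*Trgc1*, *Il17a*, *Scart1*, *Blk* and *Cxcr6*). Of the γδ T cells, 90.5% after control Ab and 84.2% after anti-CD9 Ab held at least 3 of the 5, against 5.54% and 3.89% of the other Cd3-positive cells. None of the 5 was seen in 22 (0.931%) and 43 (3.99%) γδ T cells. Levels are given in CPM, the UMIs of a gene per 1000000 UMIs of all genes in the same group of cells. *Trdc* was at 3248 CPM after control Ab and 3112 after anti-CD9 Ab, *Scart1* at 2061 and 1486, *Blk* at 902 and 719, *Trgc1* at 1524 and 1055, and *Cxcr6*, a chemokine receptor of tissue-resident T cells, at 2080 and 1264. The alpha chain gene *Trac* was at 151 and 120 CPM, against 835 and 719 in other Cd3-positive cells. At each cell's own depth, 419 (17.7%) and 245 (22.7%) γδ T cells held a *Trac* UMI. γδ T cells were deeper with anti-CD9 Ab, as given below. With cells thinned at random to an equal depth, 262 of 2140 held one after control Ab and 87 of 985 after anti-CD9 Ab. The share with *Trac* was thus smaller with anti-CD9 Ab once depth was made equal.

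**Figure D1:**
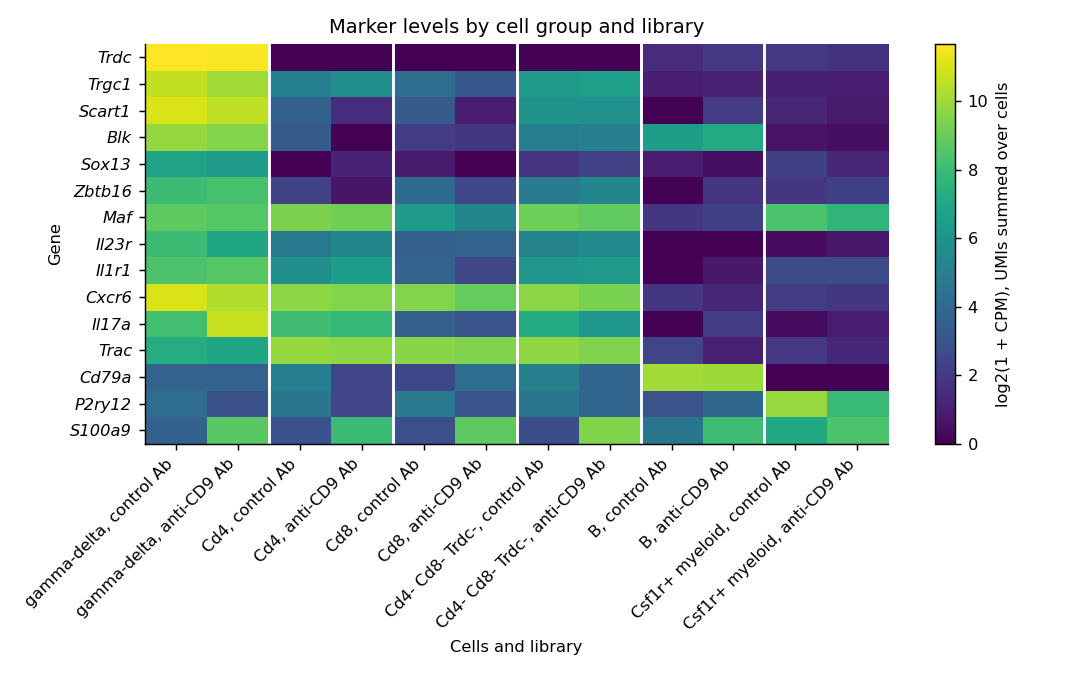
Levels of 15 marker genes (rows) in γδ T cells and 5 comparison groups of each library (columns), as log2(1 + CPM) of UMIs summed over cells. *Trdc*, *Scart1*, *Blk*, *Sox13* and *Zbtb16* were high in both γδ T cell columns, and *S100a9* was higher with anti-CD9 Ab than with control Ab in all 6 groups.

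At the edge of the rule, 205 γδ T cells after control Ab and 122 after anti-CD9 Ab held exactly 1 *Trdc* UMI. *Scart1* was seen in 70.2% and 37.7% of these, in 90.5% and 91.0% of those with 2 or more, and in 4.04% and 4.83% of the 1905 and 1098 cells that met all else but held no *Trdc*. The cells with exactly 2 Cd3 UMIs numbered 44 and 61, with *Scart1* in 84.1% and 29.5%. Just outside, 31 and 95 cells held 1 Cd3 UMI, with *Scart1* in 71.0% and 22.1%. A further 49 and 19 cells were left out for a *Cd4* UMI, 46 and 11 for *Cd8a* or *Cd8b1*, and 170 and 97 for *Csf1r*. Cells with exactly 1 *Trdc* UMI, or with 1 or 2 Cd3 UMIs, thus carried *Scart1* less often with anti-CD9 Ab than with control Ab, and cells without *Trdc* did not.

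γδ T cells made up a smaller part of the sorted cells with anti-CD9 Ab. They were 20.2% (19.5 to 20.95%) of the 11690 cells within the limits after control Ab and 7.45% (7.03 to 7.89%) of the 14455 after anti-CD9 Ab, which differ by −12.8 percentage points (−13.6 to −11.9). All Cd3-positive cells together were 48.8% and 20.98%. Of Cd3-positive cells, γδ T cells were 41.4% (40.1 to 42.7%) of 5705 and 35.5% (33.8 to 37.2%) of 3033, a difference of −5.91 points (−8.03 to −3.77). Cd4 cells went the other way, with 13.3% and 17.6% (difference 4.32 points, 2.72 to 5.96). Cd8 cells were 9.69% and 9.26% (difference −0.428, −1.69 to 0.884), and cells without *Cd4*, *Cd8* or *Trdc* 33.4% and 36.2% (difference 2.81, 0.716 to 4.92). A share says nothing of cell numbers per thalamus. When each cell was thinned at random to 1000 UMIs before the rule was applied, γδ T cells were 20.3% and 8.14% of the cells deep enough.

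**Figure D2:**
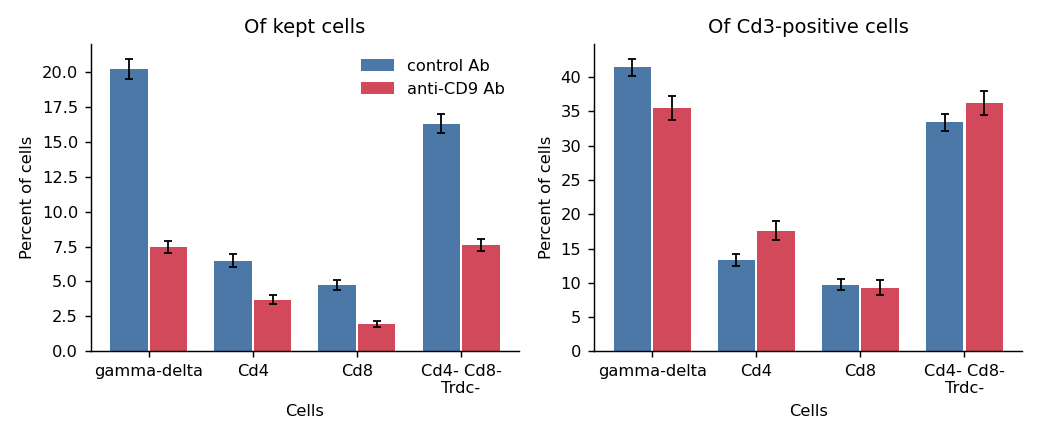
Percent of cells within the limits (left) and of Cd3-positive cells (right) that were γδ T, Cd4, Cd8 or Cd4-, Cd8- and Trdc-negative T cells, with exact binomial 95% intervals. γδ T cells were 20.2% and 7.45% of cells within the limits after control Ab and anti-CD9 Ab, and 41.4% and 35.5% of Cd3-positive cells.

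γδ T cells held more UMIs per cell with anti-CD9 Ab. The median was 1555 UMIs and 1017 genes per cell after control Ab and 2684 UMIs and 1468 genes after anti-CD9 Ab, with 4060597 and 3456663 UMIs in all. Other Cd3-positive cells differed less, with medians of 1756.5 and 2163.5 UMIs. Over all cells within the limits the medians were 1848 and 1712 UMIs, so the library as a whole was not deeper with anti-CD9 Ab. A doublet caller marked 7.58% and 10.96% of γδ T cells as likely pairs of cells. The number marked in each library was preset from its number of cells, at 9.35% and 11.6% of all cells within the limits. The libraries shared 54 barcodes, of which 2 met the rule in both. Because the depth of γδ T cells moved with the antibody, shares of cells with a UMI of a gene are given after thinning to 1000 UMIs, in 2140 and 985 γδ T cells, with the 223 and 92 shallower ones left out.

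γδ T cells were next set against the other Cd3-positive cells of the same library. Genes were compared where the 2 groups held at least 50 UMIs together, and a gene is called higher or lower from a 2-fold ratio (1 on the log2 scale). With control Ab, 442 of 10912 genes (4.05%) were called higher in γδ T cells and 688 (6.3%) lower. With anti-CD9 Ab, 348 of 10072 (3.46%) were higher and 521 (5.17%) lower. As the cells were chosen by T cell genes, these ratios describe the cells and test nothing. Beside *Trdv4* (log2 ratio 5.43 and 6.23 in the 2 libraries), *Trgv6* (4.71 and 4.54), *Scart1* (4.71 and 5.09), *Blk* (4.62 and 5.04) and *Sox13* (4.51 and 5.21), the top genes held several that are not receptor genes or classical markers. *Tns4*, a tensin of focal adhesions, was at 79.5 CPM against 2.93 after control Ab and at 43.1 against 0.574 after anti-CD9 Ab. *Rimbp2*, known from synapses, was at 75.8 against 2.51 and 67.7 against 2.68. *Abi3bp*, an extracellular matrix protein, was at 583 against 24.8 and 570 against 28.5. *Tdrd9*, *Zbtb7c*, *Gm43434* and the potassium channel *Kcnk1* completed the top 12, with log2 ratios of 4.24 to 5.14.

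At the other end of the order, *Themis*, needed for the thymic selection of alpha-beta T cells, was at 56.4 CPM against 1006 after control Ab and 21.7 against 959 after anti-CD9 Ab. *Cd40lg*, by which helper T cells activate B cells, had log2 ratios of −5.12 and −5.69. Granzyme K (*Gzmk*) had −5.12 and −5.41, and the surface receptor *Cd6* −3.87 and −4.89. The unnamed transcript *Gm44174* had 1 UMI in γδ T cells of each library and 553 and 440 in other Cd3-positive cells (log2 ratio −8.29, −13.60 to −5.81, and −8.18, −13.49 to −5.70). Of these, 429 and 388 UMIs were in Cd8 cells, which the rule kept out of the γδ T cells. *BE692007*, *Abcb1a* and *Tox2* were the others of the lowest 8.

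A list of 27 type 17 genes held 25 with enough UMIs with control Ab, of which 18 were called higher and 2 lower in γδ T cells (median log2 ratio 2.17, against 0.02 over all genes). With anti-CD9 Ab, 18 of 26 were higher and 1 lower (median 1.92, against −0.03). The list holds *Scart1*, *Blk*, *Il17a* and *Cxcr6*, used above to check the label, and without them 15 of 21 and 15 of 22 were higher (medians 2.17 and 1.72). *Zbtb16* was at 258 and 310 CPM in γδ T cells and 23.4 and 24.5 in other Cd3-positive cells, and the interleukin-1 receptor *Il1r1* was at 340 and 391 against 58.8 and 69.6. Below the level of other Cd3-positive cells in both libraries were, among others, *Il17f*, a sister cytokine of IL-17A, with 3 and 23 UMIs in all γδ T cells (0.739 and 6.65 CPM, against 6.27 and 9.56 in other Cd3-positive cells), *Ccr6* (7.88 and 1.74 against 23.6 and 25.1) and *Scart2* (1.72 and 6.65 against 9.76 and 11.1), a relative of *Scart1* known from Vγ4 cells. *Il22* had 0 UMIs in γδ T cells of both libraries, a count set at the floor of 3 UMIs wherever a bound is given. Lists of other T cell programs were lower in γδ T cells. Of 20 type 1 and cytotoxic genes, 18 were called lower with control Ab (median −2.48), and 13 of 19 with anti-CD9 Ab (median −1.83). Checkpoint and costimulatory genes were lower in 12 of 15 and 10 of 15, and genes of naive and circulating T cells, such as *Ccr7*, in 6 of 8 and 6 of 8.

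Between the antibodies, 9818 genes could be compared in γδ T cells, of which 415 (4.23%) were called higher with anti-CD9 Ab and 459 (4.68%) lower. The median log2 ratio of all genes was −0.12, and the values below carry this shift. With each gene taken relative to that median, 484 were higher and 357 lower. In other Cd3-positive cells, 420 of 11079 (3.79%) were higher and 496 (4.48%) lower, with a median of −0.06. The comparisons within and between libraries share cells and are given side by side as values only.

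**Figure D3:**
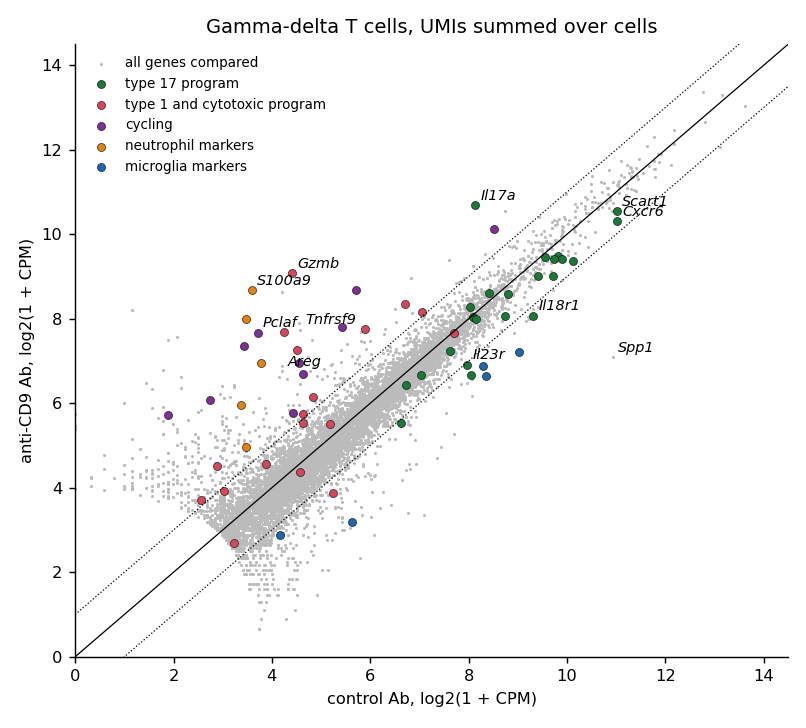
Each gene compared in γδ T cells, as log2(1 + CPM) with control Ab (horizontal) and anti-CD9 Ab (vertical), with 5 gene lists in color, the line of equal levels (solid) and 2-fold differences (dotted). *Gzmb* and *Il17a* lay above the upper dotted line, with log2 ratios of 4.74 and 2.57, and *Spp1* below the lower one, at −3.85.

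Many of the largest of these differences were in genes higher in Cd3-negative cells. Of the 10 genes furthest up, 8 were higher in Cd3-negative cells than in γδ T cells with anti-CD9 Ab, and of the 10 furthest down, 9 were so with control Ab. The 8 were *Cxcl2*, a chemokine that draws neutrophils (1.23 and 292 CPM in γδ T cells, 0.976 and 495 in other Cd3-positive cells, 8.35 and 2815 in Cd3-negative cells), *Cxcl3* (0 and 181 UMIs, at least 70.9-fold against a floor of 3 UMIs), *Il1b*, *Il1rn*, *Slfn4* (0 and 150 UMIs, at least 58.7-fold against that floor), *Clec4e* (0 and 141, at least 55.2-fold against it), *Klra2* and the antibody gene *Ighg1*. The other 2 furthest up were the mitotic genes *Kntc1* and *Kif14*, at 17.9 and 15.3 CPM with anti-CD9 Ab, against 11.6 and 2.50 in Cd3-negative cells. Among those furthest down was *Spp1* (osteopontin), at 1948 and 135 CPM in γδ T cells, 1947 and 277 in other Cd3-positive cells and 24867 and 2278 in Cd3-negative cells, beside *Lpl*, *Clu*, *Gfap* and *Slc6a11* of microglia and astrocytes. After thinning, a *Spp1* UMI was found in 63.4% and 11.2% of γδ T cells and in 39.2% and 12.4% of B cells (79.3% and 25.6%, and 85.2% and 26.3%, before thinning). An *S100a9* UMI was found in 0.327% and 8.32% of γδ T cells and 1.17% and 8.35% of B cells (0.719% and 17.9%, and 3.83% and 17.6%, before thinning). After thinning, the shares of γδ T cells with *S100a9*, and with *Spp1* under anti-CD9 Ab, were at or below those of B cells. Whether these UMIs are background or expression was not tested. With control Ab, *Spp1* was seen in 61.1% of other Cd3-positive cells, close to the share of γδ T cells.

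The summed levels of marker lists are given beside these. In γδ T cells, 7 neutrophil markers summed to 54.7 and 901 CPM (led by *S100a9* at 409 with anti-CD9 Ab), against 24.4 and 1083 in other Cd3-positive cells. With anti-CD9 Ab, 10 cells held 56.3% of the *S100a9* UMIs, all 10 of them marked as doublets, and without them *S100a9* was at 181 CPM. The 7 macrophage and monocyte markers summed to 257 and 932 (led by *Lyz2*), and the 7 microglia markers to 1244 and 380 (led by *C1qa*), against 1092 and 515 in other Cd3-positive cells. The 6 plasma cell markers summed to 9813 and 4887, almost all of it *Igkc* (8770 and 4291), and the 7 B cell markers to 562 and 482 (led by *Ighm*). A few cells carried these sums, as 10 cells held 91.8% and 92.1% of the *Igkc* UMIs and 92.2% and 95.05% of the *Ighm* UMIs. Without the 10 cells *Igkc* was at 728 and 344 CPM and *Ighm* at 39.3 and 20.6, and 7 and 6 of those with the most *Igkc* were marked as doublets. The 5 oligodendrocyte markers summed to 238 and 104 (led by *Mbp*), the 7 NK markers to 58.4 and 172 (led by *Gzma*) and the 6 ILC2 markers to 99.5 and 163, with *Il13* and *Il5* at 0 UMIs after control Ab and *Il5* at 0 after anti-CD9 Ab. The alpha-beta T cell markers summed to 1366 and 992 (led by *Trbc2*), with *Cd4*, *Cd8a* and *Cd8b1* at 0 by the rule. The part of these other cells' RNA in the differences given below was not tested.

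Within the type 17 program, *Il17a* was called higher with anti-CD9 Ab, and most of the other genes were not called. Of its 23 genes compared, 20 were below 0 on the log2 scale (62.3% of all genes were), 4 were called lower and 1 higher (median −0.38, against −0.12 over all genes). In other Cd3-positive cells none of 24 was called either way (median −0.11). *Il23r*, the receptor for interleukin-23, was at 251 CPM after control Ab and 119 after anti-CD9 Ab (log2 ratio −1.07, −1.24 to −0.90), while in other Cd3-positive cells it was at 31.4 and 39.6. *Il18r1*, the receptor for interleukin-18, was at 633 and 268 (−1.24, −1.35 to −1.13), against 484 and 456. The water and glycerol channel *Aqp3* was at 265 and 101 (−1.40, −1.57 to −1.22) and *Kcnk1* at 97.3 and 45.4 (−1.10, −1.37 to −0.83). After thinning, *Il23r* was seen in 17.8% and 9.85% of γδ T cells, *Il18r1* in 42.9% and 25.9% and *Aqp3* in 22.5% and 12.1% (24.2% and 19.6%, 57.2% and 44.6%, and 34.4% and 25.3% before thinning). The factors *Sox13*, *Rora*, *Maf* and *Zbtb16* differed little, with *Sox13* at −0.31, *Rora* at −0.11, *Maf* at −0.20 and *Zbtb16* at 0.26. Over the other settings tried, *Aqp3* stayed past the 2-fold limit (−1.52 to −1.02), while *Il23r* (−1.09 to −0.85), *Il18r1* (−1.31 to −0.85) and *Kcnk1* (−1.22 to −0.77) fell on both sides of it.

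*Il17a* was at 279 CPM (262 to 295) in γδ T cells after control Ab and 1652 (1610 to 1696) after anti-CD9 Ab (log2 ratio 2.57, 2.48 to 2.66). In other Cd3-positive cells it was at 151 and 138, and in Cd4 cells at 272 and 219. The difference lay mostly in how much a few cells held. After thinning, an *Il17a* UMI was found in 18.4% (16.7 to 20.1%) and 23.7% (21.03 to 26.4%) of γδ T cells, a difference of 5.29 points (2.23 to 8.47), and in 0 and 0.149% of B cells (25.3% and 37.9%, and 0 and 0.429%, before thinning). Cells with 10 or more *Il17a* UMIs after thinning numbered 2 of 2140 (0.0935%) and 26 of 985 (2.64%). The fullest cell held 83 *Il17a* UMIs after control Ab and 547 after anti-CD9 Ab. The 10 fullest cells held 15.3% and 53.3% of all *Il17a* UMIs of γδ T cells, and without them the levels were 237 and 785 CPM (log2 ratio 1.73). None and 1 of these 10 cells were marked as doublets.

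The difference also varied between classes of depth. Among γδ T cells of 1000 to 2000 UMIs, *Il17a* was seen in 24.7% (22.6 to 26.8%) after control Ab and 17.1% (12.5 to 22.5%) after anti-CD9 Ab, at 277 and 285 CPM. Among those of 2000 to 4000 UMIs it was seen in 34.5% and 39.7%, at 360 and 1011 CPM. Above 4000 UMIs it was seen in 22.6% of 53 and 59.5% of 264 cells, at 63.8 and 2525 CPM. Below 1000 UMIs the levels were 191 and 1025 CPM in 223 and 92 cells. The level of *Il17a* was thus alike in cells of 1000 to 2000 UMIs, and the difference between the libraries came from the other classes of depth.

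**Figure D4:**
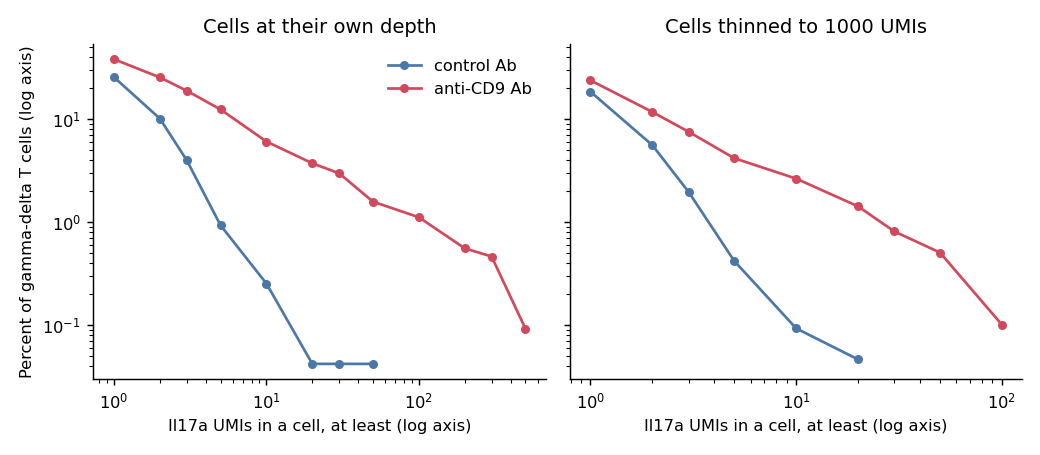
Percent of γδ T cells (log axis) that held at least the given number of *Il17a* UMIs (log axis), at each cell's own depth (left) and after thinning to 1000 UMIs (right). The curves were closest at 1 UMI (18.4% and 23.7% after thinning) and farthest apart at high counts, where 0.0935% and 2.64% of cells held 10 or more.

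*Il17a* and *Il17f* are neighbors in the genome and often made together, but here they were read at very different levels within each library (1131 and 5712 against 3 and 23 UMIs). The ratio for *Il17f* between antibodies was 3.17 on the log2 scale (1.44 to 5.55), from too few UMIs to go further. Their promoters are shown since the pair differed. The 250 bases before the start of each gene are from RefSeq (GRCm38.p6), read along the gene, with capitals for AGGTCA on either strand, letters that nuclear receptors such as RORα bind, and for TGANTCA, which AP-1 factors bind. *Il17a* lies on the plus strand (chr1:20730655-20730904) and *Il17f* on the minus strand (chr1:20784271-20784520).
Il17a: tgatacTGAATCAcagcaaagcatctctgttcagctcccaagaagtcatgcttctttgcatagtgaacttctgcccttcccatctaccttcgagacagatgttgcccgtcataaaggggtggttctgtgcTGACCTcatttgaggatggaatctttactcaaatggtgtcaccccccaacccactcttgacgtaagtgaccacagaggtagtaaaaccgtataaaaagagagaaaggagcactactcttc
Il17f: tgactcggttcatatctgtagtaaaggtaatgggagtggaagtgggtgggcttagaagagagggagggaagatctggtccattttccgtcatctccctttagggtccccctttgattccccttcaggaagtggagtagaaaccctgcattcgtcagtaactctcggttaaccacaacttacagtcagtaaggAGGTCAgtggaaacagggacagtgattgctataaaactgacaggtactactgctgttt
The *Il17a* window held AGGTCA, read on the other strand, at −120 to −115 and TGANTCA at −244 to −238. The *Il17f* window held AGGTCA at −58 to −53 and no TGANTCA. Of 32851 promoter windows of this length, 14.0% held the first motif and 6.75% the second. The matches are letters in a window only, and nothing on binding was measured.

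Type 1 and cytotoxic genes were higher with anti-CD9 Ab. Of 20 genes, 18 had enough UMIs in γδ T cells, 10 were called higher and 1 lower (median log2 ratio 1.14). In other Cd3-positive cells 3 of 20 were higher and none lower (median 0.28). *Gzmb*, granzyme B, a protease by which cytotoxic lymphocytes kill target cells, was at 20.2 CPM (16.1 to 25.1) after control Ab and 541 (516 to 566) after anti-CD9 Ab (log2 ratio 4.74, 4.42 to 5.08). In other Cd3-positive cells it was at 146 and 465, and in Cd8 cells at 463 and 1419. After thinning, *Gzmb* was seen in 1.40% and 19.8% of γδ T cells, a difference of 18.4 points (15.95 to 21.03), in 17.8% and 35.1% of Cd8 cells and in 0 of 171 and 0 of 671 B cells, which allows up to 2.13% and 0.548% (γδ T cells 2.37% and 29.2% before thinning). With control Ab *Gzmb* was lower in γδ T cells than in other Cd3-positive cells (log2 ratio −2.85), and with anti-CD9 Ab the levels were close (0.22). Over the other settings tried, its log2 ratio between antibodies went from 4.33 to 5.21. Of the 10 genes called higher, 9 stayed past the 2-fold limit in every setting in which they were compared, and *Ifng* did not (0.68 to 1.42).

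The other genes of this list differed less. *Gzma*, granzyme A, was at 21.7 and 152 CPM (2.81, 2.49 to 3.16), the chemokine *Ccl4* at 18.0 and 205 (3.51, 3.16 to 3.88) and *Ccl5* at 104 and 323 (1.63, 1.47 to 1.80). *Nkg7*, of cytotoxic granules, was at 58.6 and 216 (1.88), the type 1 master factor *Tbx21* at 27.6 and 69.4 (1.33), *Ifng* at 23.6 and 52.7 (1.16) and *Il2rb*, a receptor chain for interleukin-2 and interleukin-15, at 131 and 287 (1.13). *Klrc1* and *Fasl* were the other 2 called higher. With anti-CD9 Ab, *Gzma*, *Ccl4*, *Ccl5*, *Nkg7*, *Tbx21* and *Ifng* were still lower in γδ T cells than in other Cd3-positive cells (log2 ratios −2.40 to −0.81), where *Ccl5* was at 1701 CPM and *Nkg7* at 788. *Cxcr3*, a chemokine receptor of type 1 T cells, was lower with anti-CD9 Ab (36.9 and 13.6, −1.44, with −1.59 to −0.60 over the other settings), and was at 219 and 118 in other Cd3-positive cells. The perforin gene *Prf1* was at 7.14 and 14.2 (0.99) and *Eomes* had 10 and 2 UMIs.

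*Gzmb* was found in cells with the γδ markers. After thinning, *Scart1* was seen in 70.8% (63.8 to 77.0%) of the 195 *Gzmb*-positive γδ T cells with anti-CD9 Ab and in 73.5% (70.3 to 76.6%) of the 790 others. *Il17a* was seen in 42.6% (35.5 to 49.8%) of the *Gzmb*-positive cells and 18.99% (16.3 to 21.9%) of the others. With control Ab the shares were 16.7% (5 of 30 cells, 5.64 to 34.7%) and 18.4%. *Ccl5* was different, with *Scart1* in 54.4% of the 158 *Ccl5*-positive cells and 76.5% of the others with anti-CD9 Ab, and in 60.7% and 82.4% with control Ab. *Gzmb* was seen in 11.4% of *Ccl5*-positive and 21.4% of *Ccl5*-negative cells with anti-CD9 Ab. These shares are descriptions across cells of 1 library, which also differ in depth and in RNA from other cells.

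Checkpoint and costimulatory genes went both ways. Of the checkpoint and costimulatory list, 12 of 15 genes were compared, 5 called higher and 2 lower (median −0.10). *Tnfrsf9* (4-1BB), a costimulatory receptor that appears on activated T cells, was at 22.9 and 213 CPM (3.21, 2.90 to 3.54). The inhibitory receptors *Havcr2* (57.4 and 174), *Ctla4* (89.9 and 301) and *Pdcd1* (115 and 280) were 3.04-fold, 3.34-fold and 2.44-fold higher. *Cd160* had 11 and 51 UMIs (2.45, 1.49 to 3.53). After thinning, the share of γδ T cells with a UMI was 1.82% and 10.96% for *Tnfrsf9*, 5.47% and 18.0% for *Ctla4*, 4.81% and 14.1% for *Havcr2* and 10.8% and 20.9% for *Pdcd1* (2.71% and 21.1%, 8.89% and 30.7%, 8.42% and 32.2%, and 16.9% and 42.2% before thinning). B cells held 0 to 0.585% after thinning for *Tnfrsf9*, *Havcr2* and *Pdcd1*, and 1.75% and 2.09% for *Ctla4*. *Pdcd1* was higher with anti-CD9 Ab in other Cd3-positive cells too (log2 ratio 1.21, and 1.29 in γδ T cells). Of γδ T cells with *Tnfrsf9* under anti-CD9 Ab, 52.8% held *Gzmb*, against 15.7% of those without. *Cd28* (20.9 and 9.55) and *Cd6* (17.7 and 6.65) were the 2 called lower, and neither call held in every setting (−1.84 to −0.46 and −1.81 to −0.27).

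Of 23 cytokine and growth factor genes, 13 were compared, with *Il17a*, *Areg* and *Ifng* called higher and *Tnfsf8* lower (median 0.03), the call of *Tnfsf8* not holding in all settings (−1.22 to −0.63). *Areg*, amphiregulin, an EGF receptor ligand tied to tissue repair, was at 17.5 and 107 CPM (2.62, 2.25 to 3.01), against 13.7 and 22.4 in other Cd3-positive cells, and seen in 1.26% and 4.16% of γδ T cells after thinning (1.61% and 7.43% before). The 10 fullest γδ T cells held 57.7% and 52.6% of the *Areg* UMIs, and without them the levels were 7.42 and 51.8 CPM. Over the other settings the log2 ratio of *Areg* went from 1.54 to 2.85. *Tnf* was at 300 and 231, *Ltb* at 799 and 816, *Tgfb1* at 79.8 and 92.0 and *Csf2* (GM-CSF) at 29.1 and 17.4, none of them called. *Il21*, *Il10*, *Il2*, *Il4* and *Il13* had at most 9 UMIs in either library.

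Of 19 cytokine receptor genes 17 were compared, with *Il2rb* called higher and *Il23r* and *Il18r1* lower (median −0.15). *Il7r*, through which interleukin-7 keeps T cells alive, was at 854 and 675 CPM (−0.34) in γδ T cells and 443 and 712 (0.68) in other Cd3-positive cells. *Ifngr1* showed the same split, with 601 and 437 (−0.46) against 512 and 674 (0.40). *Il2ra* was at 159 and 250 (0.65), close to the 0.62 of other Cd3-positive cells, and *Il1r1* and *Il12rb1* had ratios of 0.20 and 0.16. Of 16 genes for chemokine receptors and residency, 12 were compared, with 2 called higher, among them *Cxcr4* (14.3 and 42.5), and *Cxcr3* lower. *Cxcr6* was 2080 and 1264 (−0.72), *Ccr2* 684 and 514 (−0.41), and the residency genes *Itgae* 228 and 131 (−0.79) and *Cd69* 240 and 149 (−0.68). *Cxcr6* was seen in 84.6% and 69.0% of γδ T cells after thinning (94.1% and 87.7% before). Of 8 genes of naive and circulating T cells 6 were compared, with 2 called higher, among them *Klf2* (7.14 and 28.9), and 4 of 8 were so in other Cd3-positive cells.

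Genes of dividing cells were higher with anti-CD9 Ab in γδ T cells and in the other Cd3-positive cells. All 10 genes of the cycling list were called higher in γδ T cells (median 2.73) and 9 of 10 in other Cd3-positive cells (median 1.82). *Mki67* was at 22.4 and 123 CPM (2.46, 2.13 to 2.80), *Top2a*, the topoisomerase of dividing cells, at 41.9 and 224, *Pclaf*, a PCNA-binding factor of DNA replication, at 12.1 and 203, and *Stmn1*, which regulates microtubules, at 51.0 and 409. At least 2 UMIs of the list were found after thinning in 9.44% and 21.9% of γδ T cells, 9.57% and 17.9% of other Cd3-positive cells, 7.505% and 24.0% of Cd8 cells and 7.60% and 6.26% of B cells (γδ T cells 18.6% and 43.8% before thinning). Depth went with this result, since among γδ T cells of 1000 to 4000 UMIs 2 of the 8 cycling genes compared were called higher, and *Mki67* had a log2 ratio of 0.52. *Il17a* was seen in 22.2% of the cells with 2 or more cycling UMIs and 24.1% of the others with anti-CD9 Ab, and *Gzmb* in 21.3% and 19.4%. Genes were also ranked after keeping those above the Cd3-negative cells in the library where their level in γδ T cells was higher. The 10 furthest up, which met this limit through the anti-CD9 Ab library, included *Gzmb*, the histones *H2ac24* and *H1f5* (4.88 and 4.83), *Cenpf* (4.55) and *Hmmr* (4.47) of the mitotic spindle and kinetochore, and *Kntc1* (1 and 62 UMIs, 6.19, 3.66 to 11.51). With control Ab, 9 of the 10 were below the Cd3-negative cells, and *Gzmb* was at 20.2 against 17.7 CPM.

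At the lower end of that ranking, where the limit was met through the control Ab library, were *Hbb-bt*, a hemoglobin gene (54.4 and 4.05 CPM, and 38.5 and 2.68 in other Cd3-positive cells), *Chad* (50.5 and 11.9), *Plxna2* (21.4 and 5.21), *Shank2*, *Pfn2* and *Aldoc*, beside *Dbp*, an output gene of the circadian clock (25.6 and 6.08), and *Cirbp*, a cold-inducible RNA-binding protein (269 and 70.9). *Cirbp* was at 258 and 75.4 in other Cd3-positive cells. *Chad*, *Plxna2* and *Shank2* were among the genes higher in γδ T cells than in other Cd3-positive cells with control Ab (log2 ratios 3.02 to 3.86), and had too few UMIs to compare with anti-CD9 Ab.

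Interferon-stimulated genes gave 5 of 18 called higher and 1 lower in γδ T cells (median 0.35), and 4 and 1 of 18 in other Cd3-positive cells (median 0.10). The higher ones were *Ifitm1* (7 and 305 UMIs, 5.68), *Ifitm2* (6.65 and 73.8 CPM), *Ifitm3* (25.6 and 137), *Oasl2* and *Rsad2*, and the lower was *Ifit3* (44.8 and 21.1). The calls of *Rsad2* (0.04 to 1.73 over the other settings) and *Ifit3* (−1.67 to −0.90) did not hold in all settings. The Ifitm genes, which restrict virus entry, were also higher in Cd4, Cd8 and B cells, and *Ifitm3* was at 196 and 1364 CPM in *Csf1r*-positive myeloid cells. Of 9 immediate early and stress genes compared, *Fos*, *Dusp1* and *Nr4a1* were called higher, and *Jun* was at 149 and 82.2. *Nr4a1*, induced by T cell receptor signals, had 8 and 49 UMIs (2.85, 1.76 to 4.14).

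The target of the antibody is the tetraspanin CD9, and the mRNAs of *Cd9*, *Cd81* and *Cd63* were called lower in anti-CD9 Ab mice. The level of *Cd9* was 251 CPM (236 to 267) and 87.7 (78.1 to 98.1) in γδ T cells (−1.52), 227 and 134 in other Cd3-positive cells and 4116 and 813 in *Csf1r*-positive myeloid cells. *Cd81*, a tetraspanin that partners with CD9, was at 119 and 33.8 (−1.82) and *Cd63* at 119 and 55.0 (−1.12). Over the other settings *Cd9* went from −1.88 to −0.80, *Cd81* from −2.11 to −0.49 and *Cd63* from −1.62 to −0.35, so that none of the 3 calls held in all of them. The other 5 tetraspanins compared had log2 ratios from −0.56 to 0.03, with *Cd53* and *Cd37* of lymphocytes at 358 and 364, and 318 and 235. After thinning, *Cd9* was seen in 15.9% and 5.79% of γδ T cells and 13.4% and 10.3% of B cells (22.2% and 14.7%, and 44.8% and 25.2%, before thinning). With control Ab the shares of the 2 cell types were close, and with anti-CD9 Ab that of γδ T cells was below that of B cells. Whether the *Cd9* UMIs in γδ T cells are background or expression was not tested.

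**Figure D5:**
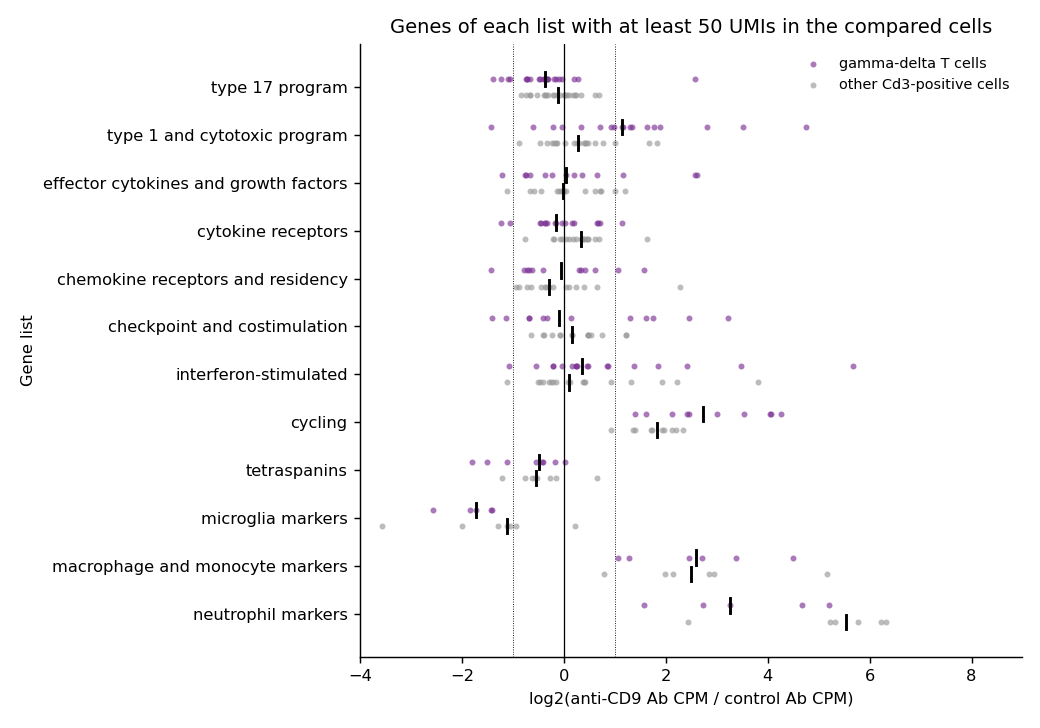
log2 ratios of anti-CD9 Ab to control Ab for the genes of 12 lists with at least 50 UMIs, in γδ T cells (purple) and other Cd3-positive cells (gray), with black bars at the medians and dotted lines at 2-fold. The medians in γδ T cells were 2.73 for cycling, 1.14 for type 1 and cytotoxic, −0.38 for type 17 and −1.72 for microglia markers, and in neutrophil markers they were 3.27 and 5.54.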

How the data were processed

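Libraries of thalamic CD45+ cells were made with the 10x 3′ v3.1 chemistry, 1 per antibody. Per the labels, the authors made the deposited matrices with Cell Ranger 8.0.0 on GRCm39, whereas the methods give v.6.0.2 and GRCm38; their values are raw UMI counts per gene and barcode, without normalization, for 33696 genes. The authors' own limit on mitochondrial counts was 2%; here it was 5%, with 2% as an alternative. The matrices held 38042608 UMIs in 12245 barcodes with control Ab and 40825201 in 15173 with anti-CD9 Ab. No cell type calls were used from the files, and cells were grouped by the count rules given in the text. Other Cd3-positive cells had 2 or more Cd3 UMIs, no *Csf1r*, and did not meet the γδ rule. B cells had 2 or more UMIs of *Cd79a* and *Cd79b* and no Cd3 or *Csf1r*, and myeloid cells 2 or more of *Csf1r* and no Cd3, *Cd79a* or *Cd79b*. Counts were summed over cells and scaled to CPM. Ratios carry exact conditional intervals, shares exact Clopper-Pearson intervals and differences of shares Newcombe intervals, all at 95% and for counting error only. A gene at 0 in a group was set at a floor of 3 UMIs, giving a bound. No test was run, since cells are not replicates. Doublets were marked, and kept, by likeness of each cell to simulated pairs (2000 variable genes, 30 components, 30 neighbors). The share marked in a library was preset, at 0.8% for each 1000 cells within the limits. Named genes were those of the lists, the 12 highest and 8 lowest against other Cd3-positive cells (100 UMIs or more in each library), and the 10 highest and 10 lowest between antibodies, over all genes compared and over those above Cd3-negative cells. Some genes of the lists are counted but not reported by name here. The cells, lists and markers were chosen with earlier results of these data known. The ratio calculation was checked on simulated counts. The tools were SciPy 1.17.1, NumPy 2.4.6, scikit-learn 1.9.0, pandas 2.3.3 and, for figures, Matplotlib 3.10.9, under Python 3.11.15. V segment sequences are from GENCODE and promoters from RefSeq, both on GRCm38, matched by gene identifier or symbol, and no coordinate was converted between builds.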

Additional observations from a re-analysis of the deposited data

Results flagged for a closer look

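In some of the listed or named genes, *Il7r* and *Ifngr1* among them, the intervals of the difference between antibodies lay on opposite sides of 0 in γδ T cells and in other Cd3-positive cells. In *Il23r*, *Tnfsf8* and *Mzb1* the difference was also 2-fold or more in at least 1 of the groups. Only the listed and named genes were looked at. How often this occurs over all genes compared is not given, so no frequency is read from them. *Il23r* had a log2 ratio of −1.07 (−1.24 to −0.90) in γδ T cells and 0.34 (0.06 to 0.61) in other Cd3-positive cells. *Tnfsf8*, the CD30 ligand, had −1.22 (−2.18 to −0.33) and 0.42 (0.25 to 0.58), from 41 and 15 UMIs in γδ T cells. *Mzb1*, a gene of plasma cells, had 0.72 (0.42 to 1.02) and −1.07 (−1.25 to −0.89). Over the other settings its log2 ratio in γδ T cells went from 0.05 to 1.64. With 1 library per antibody the difference between the cell types was not tested for any of the 3.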

How the results depend on the processing

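No paired analysis was possible because each antibody had 1 library, and for the same reason no replicate could be left out. The share of γδ T cells among cells within the limits differed by −11.9 percentage points with 2 or more *Trdc* UMIs required and −10.9 with no *Trac* UMI allowed. The ratio of *Il17a* between antibodies was 3.02 on the log2 scale at the 2% mitochondrial limit, 2.36 with no *Trac* UMI, 2.69 relative to the median gene and 2.18 as a mean over cells. In settings chosen after seeing the data it was 1.73 without the 10 fullest cells, 2.47 in cells with no UMI of the cycling list, 2.43 in cells with a *Scart1* UMI and 1.50 in cells of 1000 to 4000 UMIs. The median of the type 17 program between antibodies was −0.25 relative to the median gene and −0.18 in cells of 1000 to 4000 UMIs. Against other Cd3-positive cells it was 2.01 with 2 or more *Trdc* UMIs, 1.84 with no *Trac* UMI and 2.36 without marked doublets with control Ab, and 1.44 with no *Trac* UMI with anti-CD9 Ab.

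Between antibodies, 924 genes were lower when 20 UMIs were enough, and 259 were higher and 225 lower when 100 were needed. In cells with no cycling UMI 153 were higher and 238 lower, and in cells of 1000 to 4000 UMIs 179 and 237. Against other Cd3-positive cells, 1062 after control Ab and 854 after anti-CD9 Ab were lower when 20 UMIs were enough. These counts cannot be read as shares, since the number of genes compared also changed with the setting. Between antibodies it was 9818 in the report and 8014 at the 2% limit. The type 17 genes called lower, 4 of 23 in the report, were 2 of 23 at the 2% limit and 2 of 23 relative to the median gene. They were 2 with no cycling UMI and 1 at 1000 to 4000 UMIs. All 10 cycling genes were called higher, against 2 of 8 compared at 1000 to 4000 UMIs. In other lists fewer genes had enough UMIs to compare. Macrophage and monocyte markers called higher were 6 of 6, then 2 of 3 at the 2% limit, 3 of 5 with 2 or more *Trdc* UMIs, 1 of 3 without marked doublets, 3 of 3 at 100 UMIs or more, 1 of 2 with no cycling UMI and 2 of 2 at 1000 to 4000 UMIs. Microglia markers called lower were 5 of 5, then 3 of 4 at the 2% limit, 3 of 5 as a mean over cells and 0 of 4 with no cycling UMI. Neutrophil markers called higher were 5 of 5, then 3 of 3 both without marked doublets and with no cycling UMI, and interferon-stimulated genes 5 of 18, then 3 of 17 without marked doublets. The type 1 count of 10 went from 8 to 13. Among single genes called 2-fold, signs turned for *Themis* (0.28 with no *Trac* UMI), *Igkc* (0.17 as a mean over cells), and *Cdk1* (−0.18) and *Tyms* (−0.15) at 1000 to 4000 UMIs. The sign turned in some setting for a further 32 genes under 2-fold, of 218 single genes compared. The causes were not tested. Depth limits the V segments and cytokines with few UMIs, whose absence from a cell at this depth shows little.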
